A study of Mus musculus with 5 samples.

Results

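The 10 genes described here encode chains of the vascular basement membrane: the laminin alpha chain genes *Lama1*, *Lama2*, *Lama4* and *Lama5*, the beta chain gene *Lamb2*, the gamma chain genes *Lamc1* and *Lamc3*, the nidogen genes *Nid1* and *Nid2*, and *Hspg2*, which encodes the heparan sulfate proteoglycan perlecan. They were chosen by name, as rows whose Ensembl identifier carries one of these symbols in the NCBIM37 annotation, and make up 10 of 34615 symbols. All 10 had 1 row each and passed the filter on low values. The sequenced RNA came from microvascular fragments of the brain, captured on beads by the endothelial surface protein PECAM1 after collagenase digestion, from 3 WT and 2 Ins2-AKITA mice with 1 library each. All mice were males between 26 and 38 weeks of age on a C57BL6 background, and no label gives the age of each mouse. Ins2-AKITA mice are heterozygous for a mutation of the insulin 2 gene and become hyperglycemic through lack of insulin, and WT mice were littermates with both copies intact. The authors describe the toxicity of the mutation as specific to the pancreatic beta cells that express the gene. Whether the mutation also acts within the brain was not tested. The comparison asks whether long hyperglycemia goes with another level of these matrix genes in brain vessels.

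The basement membrane is the sheet of matrix on which endothelial cells rest and which surrounds pericytes, and in the brain the astrocyte end-feet lay a second sheet against it. Laminins are secreted as trimers of 1 alpha, 1 beta and 1 gamma chain, and the alpha chain carries most of the binding sites for integrins and dystroglycan. Laminins and type IV collagen each form a network, which nidogens and perlecan connect. In brain vessels the alpha 4 and alpha 5 chains are known from endothelial cells, alpha 2 from the astrocyte and mural side, and alpha 1 from the leptomeninges and the parenchymal sheet.

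Values are FPKM, fragments scaled to exon length in kilobases and to the mapped reads of the library, as deposited. FPKM divides by gene length, so levels of different genes can be set side by side. The number of fragments behind the values was estimated from the steps between low FPKM values, and lay between 1123986 and 2846662 per mouse, with WT replicate 3 the deepest library. For the 10 genes this gave between 15 and 409 fragments per gene and mouse. Libraries carried the endothelial markers with none of 10 at 0, and also much RNA of other brain cells. The summed FPKM was 420 to 848 for 10 endothelial markers and 180 to 252 for 8 pericyte markers, against 1494 to 2990 for 6 astrocyte, 1875 to 2554 for 5 oligodendrocyte and 601 to 702 for 5 neuronal markers. Single genes carry much of such sums, with 1013 to 2110 FPKM for *Slc1a2* among the astrocyte and 981 to 1471 for *Mbp* among the oligodendrocyte markers. The sums therefore do not measure the share of each cell type. In such bulk samples fewer cells of a type and less RNA per cell cannot be told apart. Whether the mice came from separate litters is not stated, so the tests measure the spread between these 5 mice.

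Of the 10 genes, *Lama2*, *Lama5*, *Lamb2*, *Nid1* and *Hspg2* have a promoter in the RefSeq table of assembly GRCm38.p6, a later assembly than that of the FPKM files. All 5 are printed, so that the start regions can be set side by side. In Ins2-AKITA replicate 2, 8 of the 10 genes, with and without a promoter printed here, lay below all WT mice, beside 27.9% of all symbols. These 8 included *Lama5*, *Lamb2*, *Nid1* and *Hspg2* but not *Lama2*. Whether the promoter sequences have a part in this was not tested. Each sequence runs over the 250 bases before the start of the gene, 5′ to 3′ on the strand of the gene, and capitals mark GGGCGG or its reverse complement CCGCCC, the letters of the GC box.
Lama5, chr2:180225860-180226109, minus strand: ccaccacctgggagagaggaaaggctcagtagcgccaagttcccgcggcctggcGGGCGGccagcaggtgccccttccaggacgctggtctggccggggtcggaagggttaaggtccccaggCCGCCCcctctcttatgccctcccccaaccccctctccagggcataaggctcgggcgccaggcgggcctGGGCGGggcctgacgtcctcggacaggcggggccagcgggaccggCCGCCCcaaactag
Hspg2, chr4:137468553-137468802, plus strand: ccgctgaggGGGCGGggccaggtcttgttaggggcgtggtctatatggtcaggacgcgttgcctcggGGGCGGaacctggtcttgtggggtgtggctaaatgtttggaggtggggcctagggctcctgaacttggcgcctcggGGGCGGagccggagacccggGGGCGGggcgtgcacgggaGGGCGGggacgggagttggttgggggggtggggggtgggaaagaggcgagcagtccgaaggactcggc
Lamb2, chr9:108479612-108479861, plus strand: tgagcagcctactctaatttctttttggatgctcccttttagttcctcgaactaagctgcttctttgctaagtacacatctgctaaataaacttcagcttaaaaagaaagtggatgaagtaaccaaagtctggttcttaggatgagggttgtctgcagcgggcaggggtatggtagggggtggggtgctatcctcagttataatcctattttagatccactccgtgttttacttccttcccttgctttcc
Nid1, chr13:13437352-13437601, plus strand: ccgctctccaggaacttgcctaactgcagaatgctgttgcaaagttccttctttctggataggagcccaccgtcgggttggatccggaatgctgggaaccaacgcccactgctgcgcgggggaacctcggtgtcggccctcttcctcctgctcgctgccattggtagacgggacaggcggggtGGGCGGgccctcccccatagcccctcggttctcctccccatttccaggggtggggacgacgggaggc
Lama2, chr10:27616943-27617192, minus strand: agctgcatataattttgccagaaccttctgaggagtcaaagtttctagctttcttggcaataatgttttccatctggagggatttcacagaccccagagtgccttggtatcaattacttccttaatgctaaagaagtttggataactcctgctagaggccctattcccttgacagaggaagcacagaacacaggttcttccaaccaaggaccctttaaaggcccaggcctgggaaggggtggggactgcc
The *Lama5* window held 4 such matches and 72.4% G or C, and that of *Hspg2* held 5 matches and 70.0%. The window of *Nid1* held 1 match, and those of *Lama2* and *Lamb2* held 0, with 47.2% and 43.6% G or C. Among the 32851 promoters listed, 32.7% held a match on either strand in the same window, and the median G or C content was 52.4%. The letters TATAAA or TTTATA were in none of the windows of these genes and in 12.4% of all promoters. A match is a run of letters and was not tested for binding.

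The levels of the 10 genes followed an order that was fixed at the top and at the bottom. *Lamb2* was first and *Lamc1* second in all 5 mice, and *Lama1* was last in all 5. In between, *Lama5*, *Lama4*, *Lamc3*, *Hspg2*, *Lama2*, *Nid1* and *Nid2* had WT means between 10.3 and 4.81 FPKM. Each of these neighbours overlapped in its WT values, and *Lama5* was above *Lama4*, *Lama4* above *Lamc3* and *Lamc3* above *Hspg2* in 3 of 5 mice each. *Lama2* moved most in the order. It went from place 9 in WT replicate 1 to place 3 in Ins2-AKITA replicate 2.

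**Figure D1:**
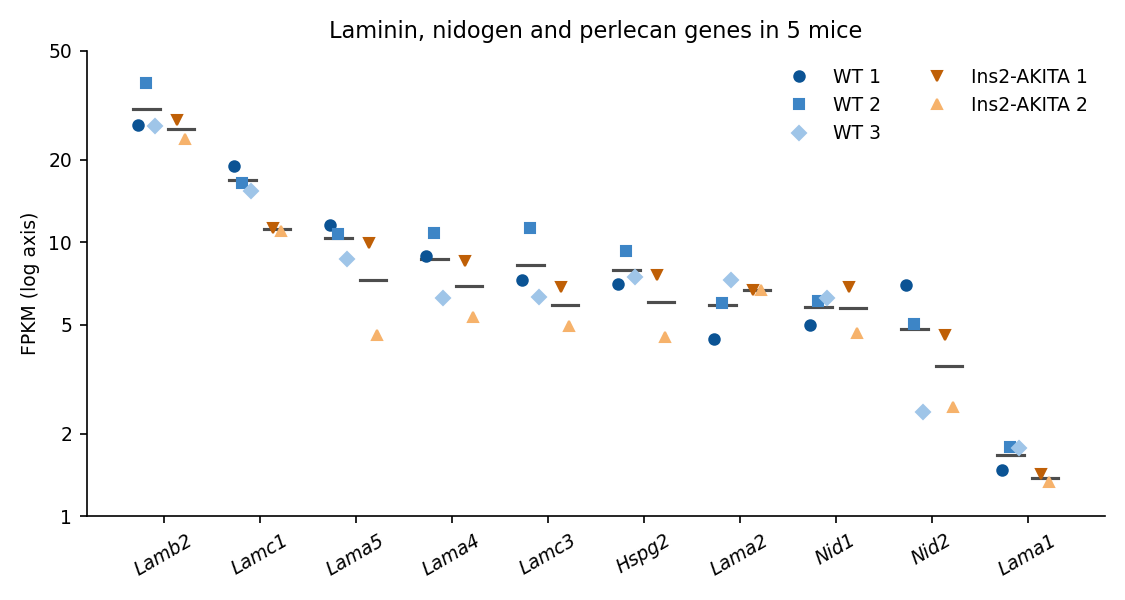
FPKM of the 10 genes (log axis) in each mouse, with genes sorted by their WT mean. Points are mice, blue for WT and orange for Ins2-AKITA, and bars are the group means; only for Lamc1 and Lama1 do both Ins2-AKITA mice lie below all WT mice.

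No gene of the 10 passed an adjusted p of 0.05 in limma, and the smallest adjusted p was 0.896. Over all 16286 symbols tested, limma called 0% higher and 0.0246% lower in the Ins2-AKITA mice. Before adjustment, limma gave p under 0.05 for 1 of the 10 genes as lower, *Lamc1*, and for 0 as higher, where the shares over all symbols were 2.93% and 1.53%. Both Ins2-AKITA mice lay below all WT mice for 2 genes, *Lamc1* and *Lama1*, and above all WT mice for 0. Over all symbols the shares were 10.3% and 9.24%. Without WT replicate 3 this held for 6 of the 10 genes, beside 23.5% of all symbols. With Ins2-AKITA replicate 1 left out it held for 8, beside 27.9%. The log2 fold change was below 0 for 9 of the 10 genes, beside 53.5% of all symbols. Its median over the 10 genes was -0.30, beside -0.03 over all symbols tested.

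*Lamc1* (ENSMUSG00000026478) is at 155066052 to 155179916 on the minus strand of chromosome 1 (NCBIM37, as for every gene position here). It encodes the gamma 1 chain, which is part of most laminin trimers and carries the nidogen binding site. In the order of the replicate numbers, which holds for all values given per mouse, the 3 WT mice had 19.0, 16.4 and 15.4 FPKM, against 11.3 and 11.0 for the 2 Ins2-AKITA mice. The Ins2-AKITA mice were close to each other and both under the lowest WT mouse. The WT mean was 16.9 ± 1.84 FPKM (SD, n = 3), 1.52-fold above the Ins2-AKITA mean of 11.2 ± 0.168 (SD, n = 2), a gap wider than either SD. The log2 fold change was -0.56 (standard error 0.22, 95% interval -1.08 to -0.03, adjusted p = 0.896 from limma). Before adjustment p from limma was 0.040, and it lay between 0.029 and 0.10 over the alternatives. An estimated 178, 174 and 353 fragments stood behind the WT values and 102 and 114 behind the Ins2-AKITA values. From counting error alone, the exact Poisson interval (95%) of the FPKM ran from 13.8 to 17.1 in WT replicate 3. In Ins2-AKITA replicate 1 it ran from 9.19 to 13.7, so these 2 came close without overlap. The estimate of fragments was checked only on genes with 1 transcript, and *Lamc1* has 5, so its intervals are approximate.

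*Lamc3* (ENSMUSG00000026840, chromosome 2, 31742811 to 31802059) encodes the gamma 3 chain, which does not sit in the most common vascular trimers. It had 7.25, 11.2 and 6.34 FPKM in the 3 WT mice, against 6.88 and 4.96 in the 2 Ins2-AKITA mice. Ins2-AKITA replicate 1 fell among the WT mice and replicate 2 under them. Its log2 fold change was -0.40 (standard error 0.33), with -0.18 without WT replicate 2, -0.20 without Ins2-AKITA replicate 2 and -0.60 without Ins2-AKITA replicate 1. Of its exon bases, 6.27% are shared with *Gm13441* on the opposite strand, and whether the authors counted by strand is not given in the sources used here. *Lamc1* made up 59.3% to 72.3% of the summed FPKM of *Lamc1* and *Lamc3* in the WT mice, against 62.1% and 69.0% in the 2 Ins2-AKITA mice. This sum was 26.2, 27.6 and 21.8 FPKM in the 3 WT mice, against 18.2 and 15.99 in the 2 Ins2-AKITA mice. Both Ins2-AKITA mice lay below all WT mice, as for *Lamc1*, its larger part, and as for 10.3% of all symbols. The sums of *Lama1* to *Lama5*, of *Lamb1* to *Lamb3* and of the nidogen genes overlapped between the groups.

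*Lamb2* (ENSMUSG00000052911, chromosome 9, 108382193 to 108392861) encodes the beta 2 chain and was the most abundant of the 10. It had 26.8, 38.2 and 26.6 FPKM in the 3 WT mice, against 27.9 and 23.8 in the 2 Ins2-AKITA mice. WT replicate 2 stood above the other 4 mice, and Ins2-AKITA replicate 1 was within the WT range. Its log2 fold change of -0.22 had a 95% interval from -0.79 to 0.36, and it was -0.05 without WT replicate 2 and -0.10 without Ins2-AKITA replicate 2.

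The alpha chain genes showed no common pattern. *Lama5* (ENSMUSG00000015647, chromosome 2, 179911078 to 179960564), whose alpha 5 chain makes up the laminin to which resting endothelium binds most strongly, had 11.6, 10.7 and 8.67 FPKM in the 3 WT mice, against 9.92 and 4.59 in the 2 Ins2-AKITA mice. Ins2-AKITA replicate 1 was within the WT range, and replicate 2 was well below every other mouse. From counting error alone, the interval of *Lama5* in Ins2-AKITA replicate 2 ran from 3.55 to 5.85 FPKM on 66 fragments, and that of the lowest WT mouse from 7.68 to 9.76. The log2 fold change was -0.53 (standard error 0.35) with all mice and -0.04 without Ins2-AKITA replicate 2.

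*Lama4* (ENSMUSG00000019846, chromosome 10, 38685321 to 38829994), the gene of the shorter alpha 4 chain found in nearly all endothelial basement membranes, had 8.93, 10.8 and 6.24 FPKM in the 3 WT mice, against 8.56 and 5.34 in the 2 Ins2-AKITA mice. The groups overlapped, with WT replicate 3 next to Ins2-AKITA replicate 2. Its log2 fold change was -0.28 (standard error 0.34) and became 0.01 without Ins2-AKITA replicate 2.

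*Lama2* (ENSMUSG00000019899, chromosome 10, 26701094 to 27336748) encodes the alpha 2 chain. It had 4.45, 5.98 and 7.29 FPKM in the 3 WT mice, against 6.72 and 6.67 in the 2 Ins2-AKITA mice. Both Ins2-AKITA mice lay between WT replicates 2 and 3. For *Lama2* the log2 fold change was 0.18, with a 95% interval from -0.55 to 0.91. It was 0.02 without WT replicate 1 and 0.32 without WT replicate 3.

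*Lama1* (ENSMUSG00000032796, chromosome 17, 68046605 to 68171985), the gene of the alpha 1 chain, was the lowest of the 10. It had 1.47, 1.79 and 1.77 FPKM in the 3 WT mice, against 1.43 and 1.34 in the 2 Ins2-AKITA mice. Both Ins2-AKITA mice were below all WT mice, but WT replicate 1 and Ins2-AKITA replicate 1 rested on 16 and 15 estimated fragments. Counting error alone gave these mice intervals of 0.843 to 2.39 and 0.801 to 2.36 FPKM. With median-ratio scaling or quantile normalization the 2 groups of *Lama1* overlapped, and *Lamc1* was then the 1 gene left with both Ins2-AKITA mice below all WT mice. *Lama1* had a log2 fold change of -0.17 (standard error 0.43), and the added 1 pulls this value towards 0 at this level.

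Within the alpha chains, *Lama4* and *Lama5* together made up 67.6%, 62.7% and 52.1% of the summed FPKM of *Lama1* to *Lama5* in the 3 WT mice, against 59.9% and 45.0% in the 2 Ins2-AKITA mice. WT replicate 3 and Ins2-AKITA replicate 2 had the smallest shares. *Lama2* made up 14.7%, 17.4% and 25.4% in the 3 WT mice, against 21.8% and 30.2% in the 2 Ins2-AKITA mice, with the largest shares in the same 2 mice. The summed share of *Lama4* and *Lama5* overlapped between genotypes.

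**Figure D2:**
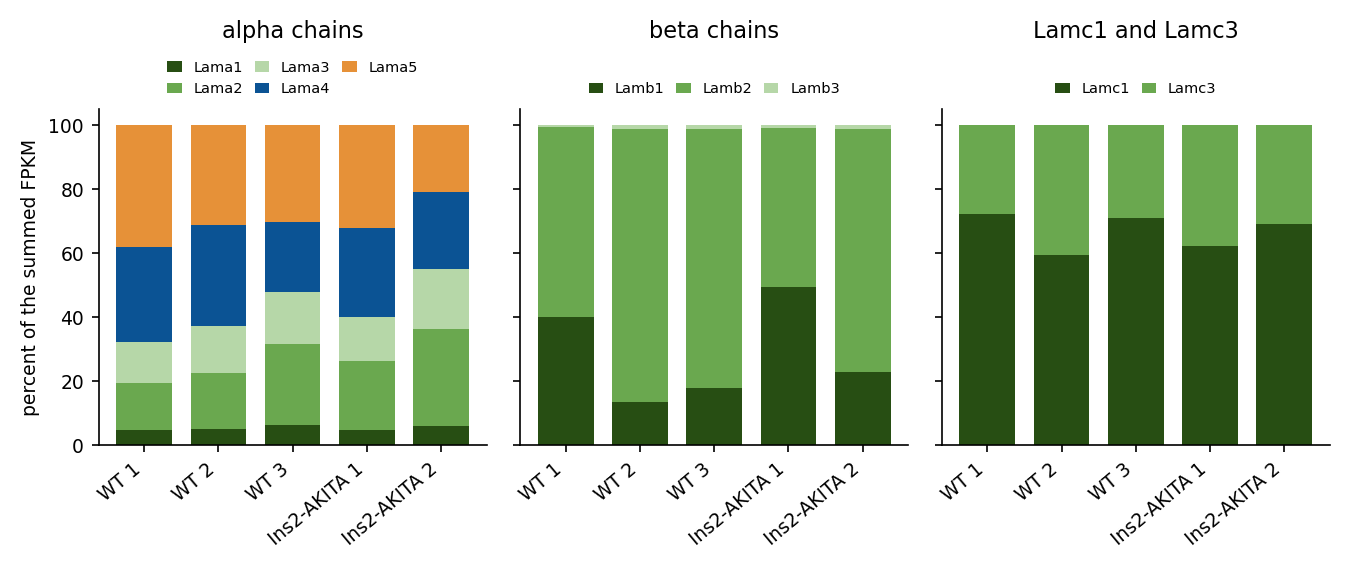
Share of each gene in the summed FPKM of the alpha and beta chain genes and of Lamc1 with Lamc3, in percent, with 1 bar per mouse. In the alpha chains the shares of Lama4 and Lama5 together run from 45.0% to 67.6% over the 5 mice, and in the beta chains that of Lamb1 from 13.6% to 49.4%.

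The nidogens cross-link laminin to type IV collagen and can in part stand in for each other. *Nid1* (ENSMUSG00000005397, chromosome 13, 13529869 to 13604542) had 5.0, 6.12 and 6.27 FPKM in the 3 WT mice, against 6.86 and 4.67 in the 2 Ins2-AKITA mice. Replicate 1 of the Ins2-AKITA mice was the highest of all 5 mice and replicate 2 the lowest. The mean was 5.80 ± 0.692 FPKM (SD, n = 3) for WT and 5.77 ± 1.54 FPKM (SD, n = 2) for Ins2-AKITA. This gave a log2 fold change of -0.02, with a 95% interval from -0.75 to 0.71. This interval is before adjustment over all symbols and does not give the smallest change that limma could call with 5 mice.

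*Nid2* (ENSMUSG00000021806, chromosome 14, 20570479 to 20631009) had 6.98, 5.04 and 2.41 FPKM in the 3 WT mice, against 4.57 and 2.50 in the 2 Ins2-AKITA mice. The spread of the WT mice took in both Ins2-AKITA mice, and the lowest value of all was that of WT replicate 3. An estimated 38, 31 and 32 fragments stood behind the WT values and 24 and 15 behind the Ins2-AKITA values. Its log2 fold change was -0.31 (standard error 0.47), the widest error of the 10 genes. Of its exon bases, 7.90% are shared with *2700060E02Rik* on the opposite strand.

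*Hspg2* (ENSMUSG00000028763, chromosome 4, 137024634 to 137126545) encodes perlecan, whose heparan sulfate chains hold growth factors in the matrix. It had 7.03, 9.27 and 7.48 FPKM in the 3 WT mice, against 7.60 and 4.51 in the 2 Ins2-AKITA mice. As for *Lama5*, Ins2-AKITA replicate 1 was within the WT range and replicate 2 below it. Its log2 fold change was -0.37 (standard error 0.31) and -0.05 without Ins2-AKITA replicate 2.

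**Figure D3:**
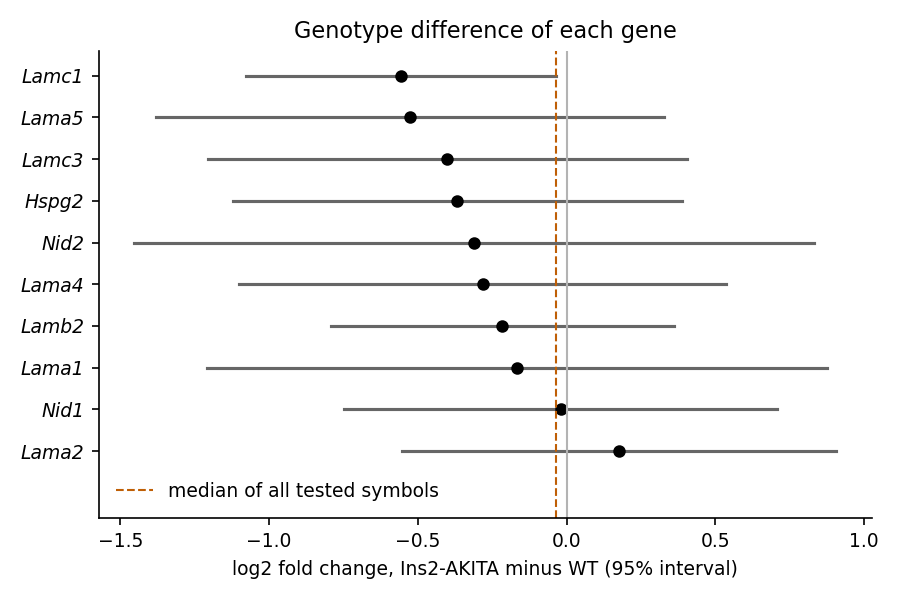
Log2 fold change of each gene, Ins2-AKITA minus WT, on the log2(FPKM + 1) scale, with the 95% interval from limma (lines); the dashed line is the median of all 16286 symbols tested, -0.03. The interval of Lamc1 ends at -0.03 before adjustment over all symbols, and the other 9 intervals include 0.

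The 2 Ins2-AKITA mice did not lie alike against the WT mice. From counting error alone, their intervals were apart for *Lama4*, *Lama5* and *Hspg2* and overlapped for the rest of the 10 genes. *Lama4*, *Lama5* and *Hspg2* have 7, 5 and 5 transcripts, and the estimate of fragments was checked only on genes with 1. In 8 genes, all but *Lama2* and *Nid2*, replicate 2 had a lower FPKM than any WT mouse, as had 27.9% of all symbols. Replicate 1 did so in 2 genes, *Lama1* and *Lamc1*, beside 22.5% of all symbols. The summed FPKM of the 10 genes was 98.5, 116 and 88.5 in the 3 WT mice, against 91.7 and 69.4 in the 2 Ins2-AKITA mice. The median log2 fold change of the 10 genes, -0.30 with all mice, was -0.05 without Ins2-AKITA replicate 2 and -0.57 without Ins2-AKITA replicate 1. The value of *Lamc1* stayed between -0.62 and -0.48 with any 1 mouse left out.

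**Figure D4:**
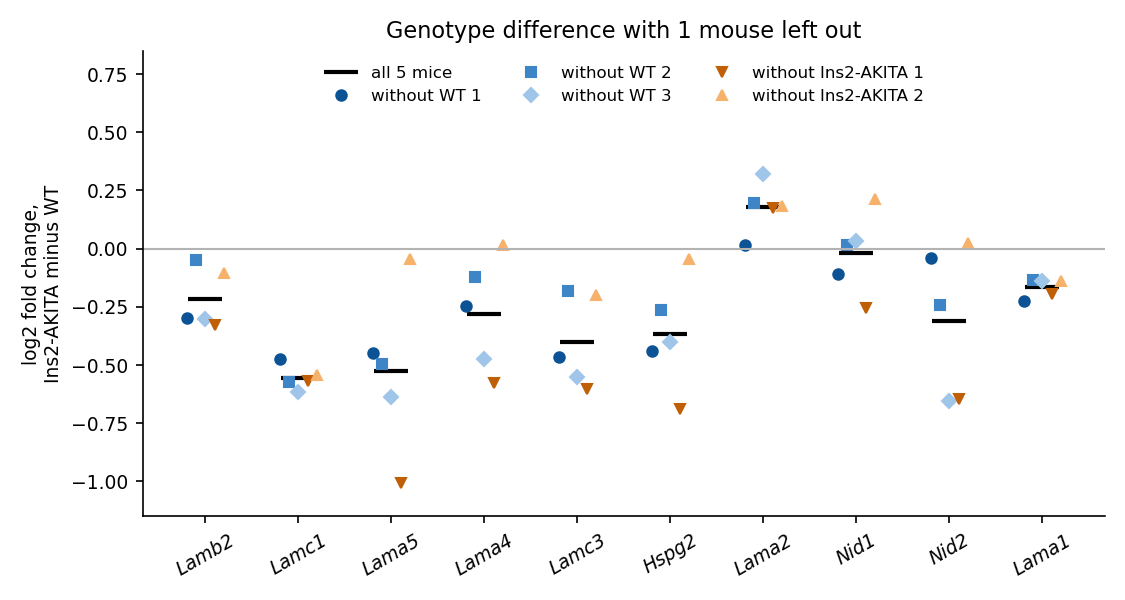
Log2 fold change of each gene with all 5 mice (black bar) and with 1 mouse left out (points, named by the mouse left out). Lamc1 lies between -0.62 and -0.48 throughout, while Lama5 runs from -1.01 without Ins2-AKITA replicate 1 to -0.04 without Ins2-AKITA replicate 2.

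Markers of cell types differed between the mice as well. The summed FPKM of the 10 endothelial markers was 630, 848 and 486 in the 3 WT mice, against 507 and 420 in the 2 Ins2-AKITA mice, with Ins2-AKITA replicate 2 the lowest. Their median log2 fold change was -0.39, between -0.63 without WT replicate 3 and -0.22 without WT replicate 2. Of these markers 9 of 10 were below 0, beside 53.5% of all symbols. For 3 of them both Ins2-AKITA mice lay below all WT mice, beside 10.3% of all symbols. The 4 smooth muscle markers summed to 212, 249 and 227 in the 3 WT mice, against 166 and 129 in the 2 Ins2-AKITA mice. Their median log2 fold change was -0.66. All 4 markers had both Ins2-AKITA mice below all WT mice, beside 10.3% of all symbols. For the 8 pericyte markers the sum was 237, 252 and 204 in the 3 WT mice, against 228 and 180 in the 2 Ins2-AKITA mice, with a median of -0.19, which was -0.41 without Ins2-AKITA replicate 1 and 0.00049 without Ins2-AKITA replicate 2. The 6 fibroblast markers summed to 30.7 to 38.2 in the 3 WT mice, against 36.7 and 36.6 in the 2 Ins2-AKITA mice. *Lum* was listed at 0 in Ins2-AKITA replicate 2. The 5 fibroblast markers tested had a median of -0.18, and of 0.07 without Ins2-AKITA replicate 1. The 6 astrocyte markers had sums of 1494, 1958 and 2198 in the 3 WT mice, against 2609 and 2990 in the 2 Ins2-AKITA mice, with a median of 0.57 and all 6 above 0. Without WT replicate 1 this median was 0.38. Both Ins2-AKITA mice lay above all WT mice for 3 astrocyte and 2 fibroblast markers, beside 9.24% of all symbols. They lay below all WT mice for 1 each of the pericyte, microglial and neuronal markers. Sums for the 6 microglial markers lay between 68.4 and 109, and those for the 4 epithelial markers between 681 and 2024, with overlap of the genotypes in both. Of the epithelial sum, *Ttr* alone had 669 to 1993 FPKM. Protein-coding genes made up 3.09%, 3.20% and 11.0% of all FPKM in the WT libraries and 9.76% and 27.5% in the Ins2-AKITA libraries. The protein-coding sum itself lay between 0.974 and 1.06 of its geometric mean over the mice. The share thus moved mostly with the FPKM of other genes, and a share of FPKM is not a share of fragments. None of these markers passed the adjusted p threshold in limma (smallest adjusted p = 0.80). The part of the markers and of the library makeup in the values of the 10 genes was not tested.

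Ratios within a library do not depend on how the libraries were scaled, and 5 were compared between genotypes with an exact two-sided permutation test, which cannot fall below 0.1 with 3 against 2 mice. The ratio of *Lamb2* to *Lamc1* was 1.41, 2.33 and 1.73 in the 3 WT mice, against 2.48 and 2.15 in the 2 Ins2-AKITA mice, and its log2 value was higher by 0.37 in Ins2-AKITA mice (exact permutation p = 0.3). The ratio of *Lama4* to *Lama5* was 0.771, 1.01 and 0.720 in the 3 WT mice, against 0.863 and 1.16 in the 2 Ins2-AKITA mice. This was a log2 difference of 0.28 (exact permutation p = 0.4). That of *Lama2* to *Lama4* was 0.498, 0.554 and 1.17 in the 3 WT mice, against 0.785 and 1.25 in the 2 Ins2-AKITA mice. This was a log2 difference of 0.53 (exact permutation p = 0.4). With 1 mouse left out in turn these differences ranged from 0.20 to 0.57, from 0.067 to 0.50 and from 0.20 to 0.91. In each of these 3 ratios at least 1 Ins2-AKITA mouse lay among the WT mice. For *Nid1* to *Nid2* the log2 difference was 0.35 (exact permutation p = 0.7) and for *Hspg2* to *Lamc1* it was 0.17 (exact permutation p = 0.6). After Benjamini-Hochberg adjustment over the 5 ratios, p from the exact permutation tests was 0.67 for the first 3 and 0.70 for the last 2. Of the 5, the ratio of *Nid1* to *Nid2* varied most between WT mice, from 0.716 in replicate 1 to 2.60 in replicate 3.

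Of the laminin chain genes outside the 10, 3 were examined. *Lamb1*, whose beta 1 chain takes the place of beta 2 in other trimers, had 18.1, 6.09 and 5.86 FPKM in the 3 WT mice, against 27.8 and 7.19 in the 2 Ins2-AKITA mice. One mouse of each genotype was high, and *Lamb1* made up 40.1% of the beta chain FPKM in WT replicate 1 and 49.4% in Ins2-AKITA replicate 1, against 13.6% to 22.9% in the other 3 mice. *Lama3*, the alpha chain gene of epithelial laminins, had 3.90 to 5.03 FPKM in the 3 WT mice, against 4.20 and 4.13 in the 2 Ins2-AKITA mice, above *Lama1* in every mouse. *Lamb3* had a mean FPKM under 1 and was not tested. Neither *Lamb1* nor *Lama3* passed the adjusted p threshold in limma.

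Of 21 other basement membrane genes 20 were tested, with 0 past the adjusted p threshold in limma. The log2 fold change was below 0 for 16 of them, beside 53.5% of all symbols, with a median of -0.26. That median was -0.60 without Ins2-AKITA replicate 1 and -0.09 without Ins2-AKITA replicate 2. Both Ins2-AKITA mice were below all WT mice for 4 and above them for 1, beside 10.3% and 9.24% of all symbols. They ranged from -0.75 for *Egfl8*, which encodes a secreted protein related to Egfl7, to 0.27 for *Npnt*, which encodes the integrin ligand nephronectin. *Npnt* had 4.63, 6.20 and 5.68 FPKM in the 3 WT mice, against 6.80 and 6.78 in the 2 Ins2-AKITA mice. Of 12 laminin and nidogen receptor genes 11 were tested, with 0 past the threshold in limma and 8 below 0, beside 53.5% of all symbols. Their median was -0.23, and -0.12 without WT replicate 3. Both Ins2-AKITA mice lay below all WT mice for 1 of the receptor genes and above them for 0, beside 10.3% and 9.24% of all symbols. The lowest was *Itgb4* at -0.99, whose integrin beta 4 chain binds laminin in hemidesmosomes. *Itgb4* stood at 40.6 FPKM in WT replicate 1 and between 4.72 and 7.88 FPKM in the remaining 4 mice, with both genotypes among them. The highest was *Sdc1* at 0.49, which encodes syndecan 1 and varied from 0.958 to 6.45 FPKM over the 5 mice. The 15 other heparan sulfate proteoglycan genes, all tested, had 0 past the threshold in limma and a median of -0.06, between -0.15 and -0.02 with 1 mouse left out. Of these 15 genes 9 were below 0, beside 53.5% of all symbols. For 2 of them both Ins2-AKITA mice lay below all WT mice and for 0 above, beside 10.3% and 9.24% of all symbols. Their lowest was *Sdc2* at -0.62, the gene of syndecan 2, with 28.1, 26.6 and 17.2 FPKM in the 3 WT mice, against 13.2 and 16.8 in the 2 Ins2-AKITA mice, both below all WT mice. *Sdc1* and *Sdc4* stand in both the receptor and the proteoglycan list, and *Agrn* and *Col18a1* in both the basement membrane and the proteoglycan list.

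**Figure D5:**
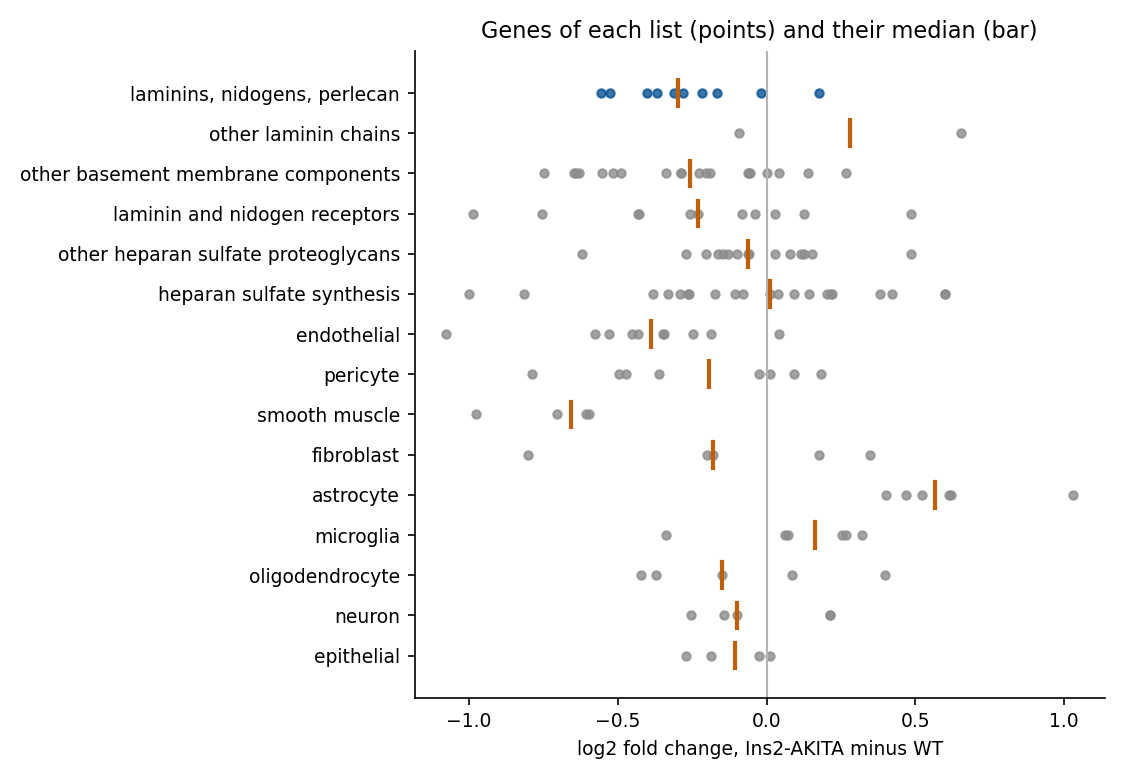
Log2 fold change, Ins2-AKITA minus WT, of every tested gene (points) of the 10 genes, of the other gene lists and of the cell type marker lists, with the median of each list (brown bar). The 10 genes have a median of -0.30, the endothelial markers of -0.39, the smooth muscle markers of -0.66 and the astrocyte markers of 0.57.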

How the data were processed

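Libraries were made by the authors from ribosomal RNA-depleted total RNA with a stranded kit, 1 per mouse. Per the submitters' processing notes and methods, reads were mapped to NCBIM37 with TopHat2 2.0.4, duplicates removed with Picard 1.92 and tests run with Cufflinks 2.2.1. The deposited values are FPKM per Ensembl identifier, made by the authors; the program behind the values of single mice is not given in the sources used here. Removal of duplicates can lower abundant genes.

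Identifiers were matched to GENCODE vM1 (NCBIM37), which held 37197 of 37982, and rows with a shared symbol were summed. Symbols were kept where FPKM averaged 1 or more over the mice (16286) and tested on log2(FPKM + 1) with limma 3.58.1 in R 4.3.3 (trend, two-sided, Benjamini-Hochberg), with genotype as the only factor. Fold changes on this scale understate those of low genes. The fit was tested on simulated data. Python 3.11.15 and scipy 1.17.1 did the rest.

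Fragments were estimated from FPKM times exon length less 220 or 225 bases; of the low values of genes with 1 transcript, 97.2% to 97.6% per mouse then came within 0.05 of a whole number. For genes with more than 1 transcript the length of all their exons was used, and the estimate was not checked. Intervals on the estimated fragments cover counting error only.

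All 10 genes were named in full, and of each further gene list, the genes with the lowest and highest fold change. Of the cell type marker lists only sums, counts and medians were given. *Slc1a2*, *Mbp* and *Ttr* were named for their part in a sum and *Lum* for a value of 0. Genes and lists were chosen with earlier results of these data known. Tried as alternatives were 3 scalings, the replicate block, a constant prior, the highest row per symbol, filters at 0 and 5, a pseudocount of 0.1, and each mouse left out in turn. With 1 Ins2-AKITA mouse left, it is assumed to vary like the others. The sum of FPKM over all genes was not used for scaling, since protein-coding genes made up 3.09% to 27.5% of it per mouse. One further laminin chain gene is not reported here.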

Additional observations from a re-analysis of the deposited data

How the results depend on the processing

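None of the 10 genes passed an adjusted p of 0.05 in limma under any of the 14 alternatives, and 0 to 1 had an unadjusted p under 0.05 in each. For *Lamc1* this p exceeded 0.05 with quantile normalization, a constant prior, the replicate block, and without any one of WT replicates 1 and 2 and Ins2-AKITA replicates 1 and 2; without Ins2-AKITA replicate 1 the gene was *Lama5*. The number of symbols called lower (4) became 2 with no filter, with the filter at 5 and with a constant prior, and 1 to 6 with 1 mouse left out; the number called higher (0) became 1 with a constant prior and 0 to 10 with 1 mouse left out. The number of the 10 genes with both Ins2-AKITA mice below all WT mice (2) became 1 with median-ratio scaling and quantile normalization, 6 without WT replicate 3 and 2 to 8 with 1 mouse left out; for those above, it was 0 to 1. The median of the 10 genes was -0.57 to -0.045 with 1 mouse left out. *Nid1* (-0.02) became 0.031 with the replicate block, 0.088 under quantile normalization and 0.0021 under median-ratio scaling, and was -0.26 to 0.21 with 1 mouse left out; *Lama4* was -0.58 to 0.014 and *Nid2* -0.65 to 0.024. The log2 difference of the ratio of *Nid1* to *Nid2* was -0.086 to 0.84 and that of *Hspg2* to *Lamc1* -0.19 to 0.53. The cause of these reversals was not tested. With the filter at 5, *Lama1* and *Nid2* were not tested.

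Mice share only a replicate number, and no source names pairs; same-numbered mice had deviations correlated at 0.051 and -0.034 across symbols. The 2 Ins2-AKITA mice deviate from their mean by equal amounts in opposite directions. Each WT mouse is thus bound to have correlations of equal size and opposite sign with the 2 Ins2-AKITA mice. The replicate block, in which WT replicate 3 has no partner, gave 5 symbols lower and 0 higher, 1249 symbols in place of 726 at an unadjusted p under 0.05, and a median of -0.44 for the 10 genes. Leaving out WT replicate 3 with no block gave the same median and 1402 symbols. Depth limits the low genes most: 15 to 47 fragments per mouse stood behind *Lama1* and 15 to 38 behind *Nid2*.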

Other observations

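Heparan sulfate, the sugar chain of perlecan, is built and trimmed by a set of enzymes. Of 22 of their genes 21 were tested, with 0 past the adjusted p threshold in limma, a median log2 fold change of 0.01, 11 above 0 and 10 below. Both Ins2-AKITA mice were above all WT mice for 3 genes and below them for 2, beside 9.24% and 10.3% of all symbols. At an unadjusted p under 0.05, limma had 1 of the 21 genes lower, beside 2.93% of all symbols. This was *Hs6st2*, which adds 6-O-sulfate and is named here after its values were seen (adjusted p = 0.896 from limma). *Hs6st2* had 13.9, 10.47 and 21.5 FPKM in the 3 WT mice, against 8.17 and 7.63 in the 2 Ins2-AKITA mice. The fold changes of the list ranged from -1.0 for *Xylt2*, a xylosyltransferase that starts the chain, to 0.60 for *Hs2st1*, which adds 2-O-sulfate. *Xylt2* had 67.2, 48.9 and 16.2 FPKM in the 3 WT mice, against 26.8 and 12.5 in the 2 Ins2-AKITA mice, and Ins2-AKITA replicate 1 was above WT replicate 3. *Hs2st1* had 10.3, 13.3 and 9.40 FPKM in the 3 WT mice, against 21.4 and 13.5 in the 2 Ins2-AKITA mice, both above all WT mice.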
